A study of Caenorhabditis elegans with 9 samples.

Results

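Glutathione transferases and the enzymes that make and recycle their substrate were described here in Caenorhabditis elegans depleted of RPOA-2, the second-largest subunit of RNA polymerase I. The set holds every gene named gst, gsto or gstk with a number, plus gcs-1 and gsr-1, that was listed in any of 9 RNA-seq libraries. It comes to 47 of 13246 genes: 40 gst genes, 3 omega-class gsto genes, 2 kappa-class gstk genes, gcs-1 and gsr-1. The genes gst-17, gst-18, gst-32 and gst-44 carry such names in the annotation and were listed in no library used here. Beyond being listed at least once, no measured value entered the choice of members, and earlier results of these data were known when the set was drawn up.

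RNA came from whole worms grown at 16 °C, and the titles carry the word embryo without naming the stage at harvest. All animals carried degron::GFP::rpoa-2, in which RPOA-2 bears GFP and a tag that the plant receptor TIR1 recognises when the auxin IAA is present. The control groups carried no TIR1 and were kept without IAA for 18 h (n = 2) or 24 h (n = 2). Hypodermal depletion (n = 3) combined the tag with TIR1 driven by the col-10 promoter, and global depletion (n = 2) with TIR1 driven by the eft-3 promoter, both on 1 mM IAA for 24 h. Both depleted groups therefore differ from the controls in TIR1 and IAA as well as in RPOA-2, and the effects of the 3 cannot be told apart with these samples. Whether the libraries of 1 group were grown as separate cultures is not stated in the labels, and p-values here reflect spread among libraries that may be technical.

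Glutathione transferases join the tripeptide glutathione to reactive, electrophilic compounds, which makes them more soluble and easier to export. The glutathione is made by glutamate-cysteine ligase, encoded by gcs-1, followed by glutathione synthetase, and its oxidised form is reduced again by the product of gsr-1. In C. elegans many gst genes, among them the widely used reporter gst-4, are targets of SKN-1, a transcription factor related to the mammalian Nrf proteins that acts in the intestine and is held down by the protein WDR-23.

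The control libraries were shallower than the depleted ones. Totals ran from 166455 counts in 18 h control 2 to 2134185 in hypodermal depletion 1, and the deposited table lists no count below 3. Levels are given as CPM, that is counts per 1e+06 after scaling. At 18 h the level that 3 counts stand for was 14.8 and 18.1 CPM in the controls, and at 24 h it was 9.55 and 6.04 CPM in the controls, 2.26 and 2.58 in global depletion and 1.44 to 3.88 in hypodermal depletion. A gene is called unlisted in a library where it was under that level. Of the 47 members, 19 were listed in all 9 libraries, and 31 passed the filter on low counts and were tested. The targeted gene rpoa-2 was listed in every library, at 156 and 260 CPM in the 24 h controls, 355 and 369 in global depletion and 238 to 290 in hypodermal depletion. The tag acts on the protein, so its RNA level does not check the depletion. Each of 6 marker lists of 10 genes for intestine, hypodermis, body wall muscle, neurons, pharynx and germ line had at least 5 genes listed in every group. In bulk RNA, fewer cells of a type and less RNA per cell cannot be told apart.

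**Figure D1:**
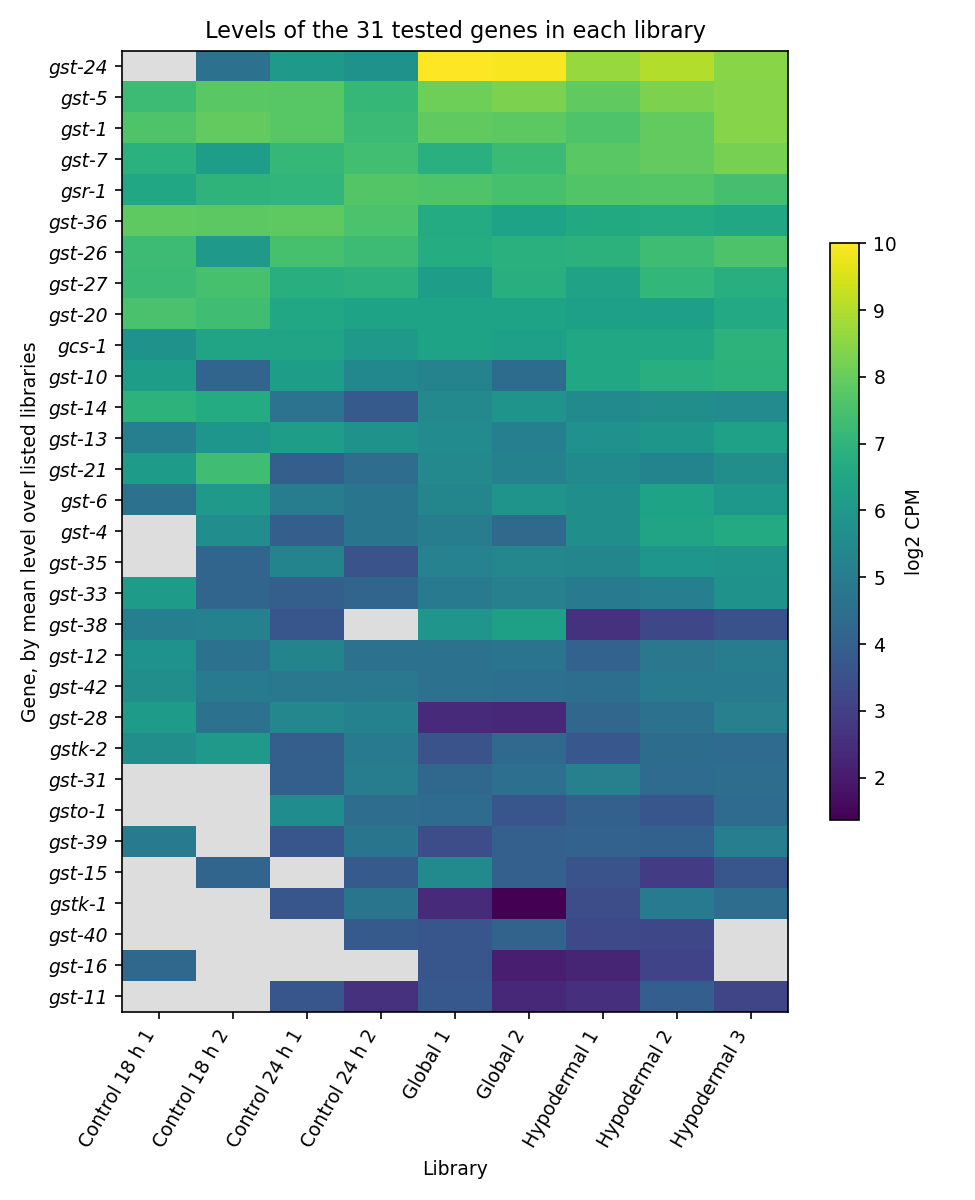
Heat map of log2 CPM for the 31 tested members (rows, ordered by mean level over the libraries where they were listed) in each of the 9 libraries (columns), with unlisted values in grey. The row of gst-24 runs from unlisted in 18 h control 1 to 1028 CPM in global depletion 1.

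In the 24 h controls the most abundant members per kilobase of coding sequence were gst-36, gst-1 and gst-5, and the same 3 genes led in the 18 h controls. In both depleted groups the first place went to gst-24, with a mean of 1591 CPM per kilobase in global depletion and 682 in hypodermal depletion, followed by gst-5 and gst-1. Per library, the summed CPM of all 47 members, with unlisted values as 0, was 2012 and 1834 in the 24 h controls and 2930 and 2927 in global depletion. In hypodermal depletion the sum was 2385, 2895 and 3014, and in the 18 h controls 2081 and 2205. Without gst-24 the sums were 1948 and 1780 in the 24 h controls, 1901 and 1960 in global depletion and 1977, 2375 and 2661 in hypodermal depletion. With gst-24 both depleted groups lay above all 4 controls when unlisted values were taken as 0. With unlisted values as 2, 18 h control 2, at 2435 CPM, lay above hypodermal depletion 1, at 2389 CPM. Without gst-24 and with unlisted values as 0, the 18 h controls were at 2081 and 2181 CPM. Global depletion then overlapped the 24 h controls and lay below the 18 h controls. The single gene gst-24 made up 33.0% to 35.1% of the summed level in global depletion, 11.7% to 18.0% in hypodermal depletion and 2.96% to 3.16% in the 24 h controls.

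**Figure D2:**
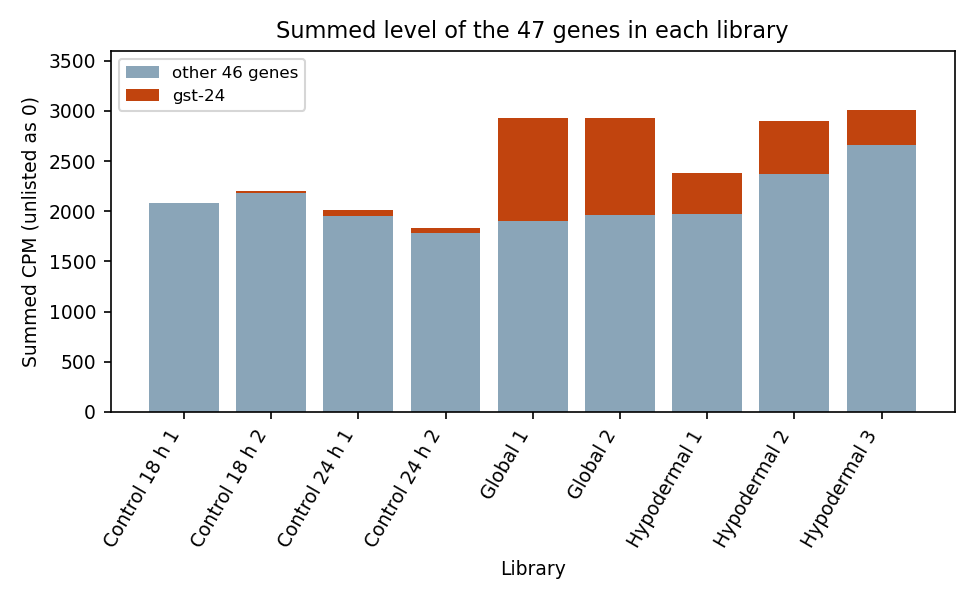
Bars give the summed CPM of the 47 members in each library, with unlisted values as 0, split into gst-24 and the other 46 genes. The gst-24 segment is largest in global depletion, and the remainder there, 1901 and 1960 CPM, is close to the 1948 and 1780 CPM of the 24 h controls.

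The first comparison set global depletion against the 24 h controls, for the response to depletion across tissues. Of the 31 tested members, 5 passed at an edgeR adjusted p below 0.05, or 16.1%, beside 8.45% of all 8035 genes tested. gst-24 and gst-38 rose, and gst-28, gst-36 and gstk-1 fell; over all genes 3.43% rose and 5.02% fell. The median log2 fold change of the 31 members was 0.09, beside 0.01 over all genes. Scaling by total counts alone called 6 members, 4 higher and 2 lower. Without global depletion 2 the count was 3, and over the other libraries left out 1 at a time it went up to 6.

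The second set hypodermal depletion against those 24 h controls, for the response when TIR1 is placed in the hypodermis. Of 31 members 3 passed, or 9.68%, beside 5.07% of all genes: gst-24 and gst-4 rose and gst-36 fell. Over all genes 1.66% rose and 3.41% fell, and the median log2 fold change was 0.16 for the members and 0.03 for all genes. The 2 comparisons share their controls, so the values of a gene in both are given side by side and are not independent. Without either 24 h control, hypodermal depletion 2 or hypodermal depletion 3 the count of members was 2, and without hypodermal depletion 1 it was 4.

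**Figure D3:**
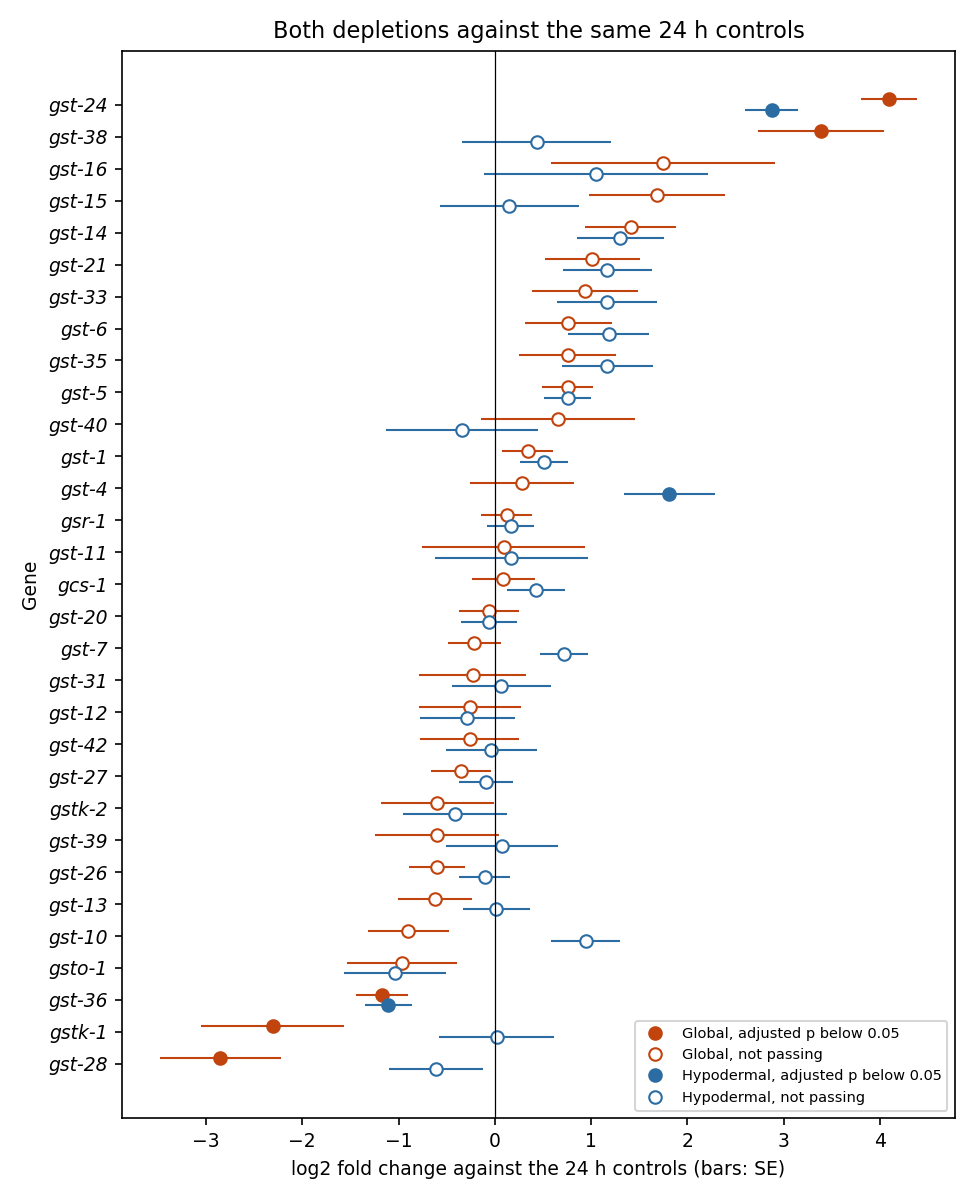
Log2 fold changes (x axis) with SE bars of the 31 tested members in global and hypodermal depletion, each against the 24 h controls. Filled circles passed at an adjusted p below 0.05; gst-24 stands at the top with 4.09 and 2.87, and gst-36 lies below 0 in both.

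The 2 glutathione-supply enzymes in the set did not pass in any of the 6 comparisons. gcs-1, the rate-limiting enzyme of glutathione synthesis, had means of 69.4 ± 21.4 CPM in the 18 h controls (SD, n = 2), 76.2 ± 13.8 in the 24 h controls (n = 2), 79.8 ± 4.47 in global depletion (n = 2) and 102 ± 18.0 in hypodermal depletion (n = 3). Its log2 fold change against the 24 h controls was 0.09 (SE 0.33) in global and 0.43 (SE 0.30) in hypodermal depletion, with edgeR adjusted p = 0.916 and 0.498. gsr-1, the glutathione reductase, was at 171 ± 52.1 CPM in the 24 h controls, 189 ± 10.2 in global depletion and 194 ± 16.5 in hypodermal depletion. Its log2 fold changes were 0.12 (SE 0.26) and 0.16 (SE 0.24). Both genes' group ranges overlapped between the 24 h controls and global depletion. For gcs-1 the hypodermal libraries, at 93.4, 90.5 and 123 CPM, lay above every other library, of which the highest was 24 h control 1 at 86.0 CPM.

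gst-24 (WBGene00001772, chromosome II, 13610443 to 13611349 on the minus strand of WBcel235) encodes a glutathione transferase of 627 coding bases and had the largest estimate among the members in each depletion against the 24 h controls. It was unlisted in 18 h control 1 and at 24.2 CPM in 18 h control 2, and at 63.7 and 54.4 CPM in the 24 h controls. It reached 1028 and 967 CPM in global depletion and 408, 521 and 353 CPM in hypodermal depletion. The 3 levels did not overlap: every hypodermal library lay above every control, and both global libraries lay above every hypodermal one. Against the 24 h controls the log2 fold change was 4.09 (SE 0.29, edgeR adjusted p = 8.49e-15) in global and 2.87 (SE 0.28, adjusted p = 1.01e-10) in hypodermal depletion. The difference between the depletions, tested directly, was -1.22 for hypodermal minus global (SE 0.20, adjusted p = 3.02e-05). The values rest on 1364 and 1123 counts in global depletion and 20 and 27 counts in the 24 h controls. All 3 calls held under every alternative run.

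gst-38 encodes a glutathione transferase on chromosome V, and it rose in global depletion. Its level was 12.7 CPM in 24 h control 1, unlisted in 24 h control 2, 58.1 and 77.5 CPM in global depletion, and 6.26, 9.38 and 11.7 CPM in hypodermal depletion. It stood at 34.5 and 36.2 CPM in the 18 h controls, so global depletion was above all controls while hypodermal depletion was below the 18 h controls and in the range of the 24 h controls. The log2 fold change was 3.39 (SE 0.66, edgeR adjusted p = 0.000272) in global and 0.44 in hypodermal depletion against the 24 h controls, and hypodermal minus global was -2.95 (SE 0.43, adjusted p = 3.01e-06). One control value entered the fit as an assumed count of 1, and the call against the 24 h controls held with 0 or 2 in its place. With every library thinned to the smallest total, gst-38 was not tested. The estimate rests on the controls taken: it was 4.96 without 24 h control 1 and 2.36 without 24 h control 2. Against the 18 h controls the global estimate was 0.94 (SE 0.56, adjusted p = 0.285).

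gst-36, a transferase gene on the X chromosome and the most abundant member per kilobase in the controls, fell in both depletions. It was at 232 and 230 CPM in the 18 h controls, 236 and 187 in the 24 h controls, 102 and 83.5 in global depletion, and 98.7, 102 and 90.6 in hypodermal depletion. All 5 depleted libraries lay below all 4 controls. The log2 fold change against the 24 h controls was -1.18 (SE 0.27, edgeR adjusted p = 0.0022) in global and -1.1 (SE 0.24, adjusted p = 0.00225) in hypodermal depletion. The global call was lost without global depletion 2 (adjusted p = 0.0939). With every library thinned to the smallest total, both calls were lost, at adjusted p = 0.0792 and 0.0996. Against the 18 h controls the estimates were -1.31 and -1.24, and both passed except without a filter (0.0902 and 0.0716).

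gst-28 is part of a row of 8 gst genes on chromosome II and fell in global depletion. Its CPM were 41.4 and 36.2 in the 24 h controls, 5.28 and 5.17 under global depletion, and 18.8, 24.1 and 35.0 under hypodermal depletion, beside 69.0 and 24.2 at 18 h. The 3 groups did not overlap at 24 h, with hypodermal depletion between the others. The log2 fold change was -2.85 in global depletion (SE 0.63, edgeR adjusted p = 0.00136), held under every alternative that tested it, and -0.61 (SE 0.49, adjusted p = 0.565) in hypodermal depletion. In thinned libraries gst-28 was not tested. Hypodermal minus global was 2.24 (SE 0.56, adjusted p = 0.00801). That difference was lost without hypodermal depletion 3 (adjusted p = 0.0556), global depletion 1 (0.137) or global depletion 2 (0.13).

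gst-4, the standard reporter gene for SKN-1 activity, rose in hypodermal depletion. Its CPM were 15.9 and 26.2 in the 24 h controls, 32.4 and 20.7 under global depletion, and 51.5, 85.1 and 99.7 under hypodermal depletion. In the 18 h controls it was unlisted in the first library and at 48.3 CPM in the second. All hypodermal libraries lay above all controls and above global depletion, whereas global depletion overlapped the 24 h controls. The log2 fold change was 1.81 in hypodermal depletion (SE 0.47, edgeR adjusted p = 0.0131), 0.28 in global depletion (SE 0.54, adjusted p = 0.821), and 1.53 for hypodermal minus global (SE 0.38, adjusted p = 0.00748). The first call was lost without 24 h control 1 (adjusted p = 0.169), 24 h control 2 (0.0807), hypodermal depletion 2 (0.0619) or 3 (0.0748). The difference between depletions was lost without hypodermal depletion 2 (0.0646) or 3 (0.0886) or global depletion 2 (0.253). With thinned libraries both were lost (0.313 and 0.104), and the first also with unlisted counts as 0 (0.0503).

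**Figure D4:**
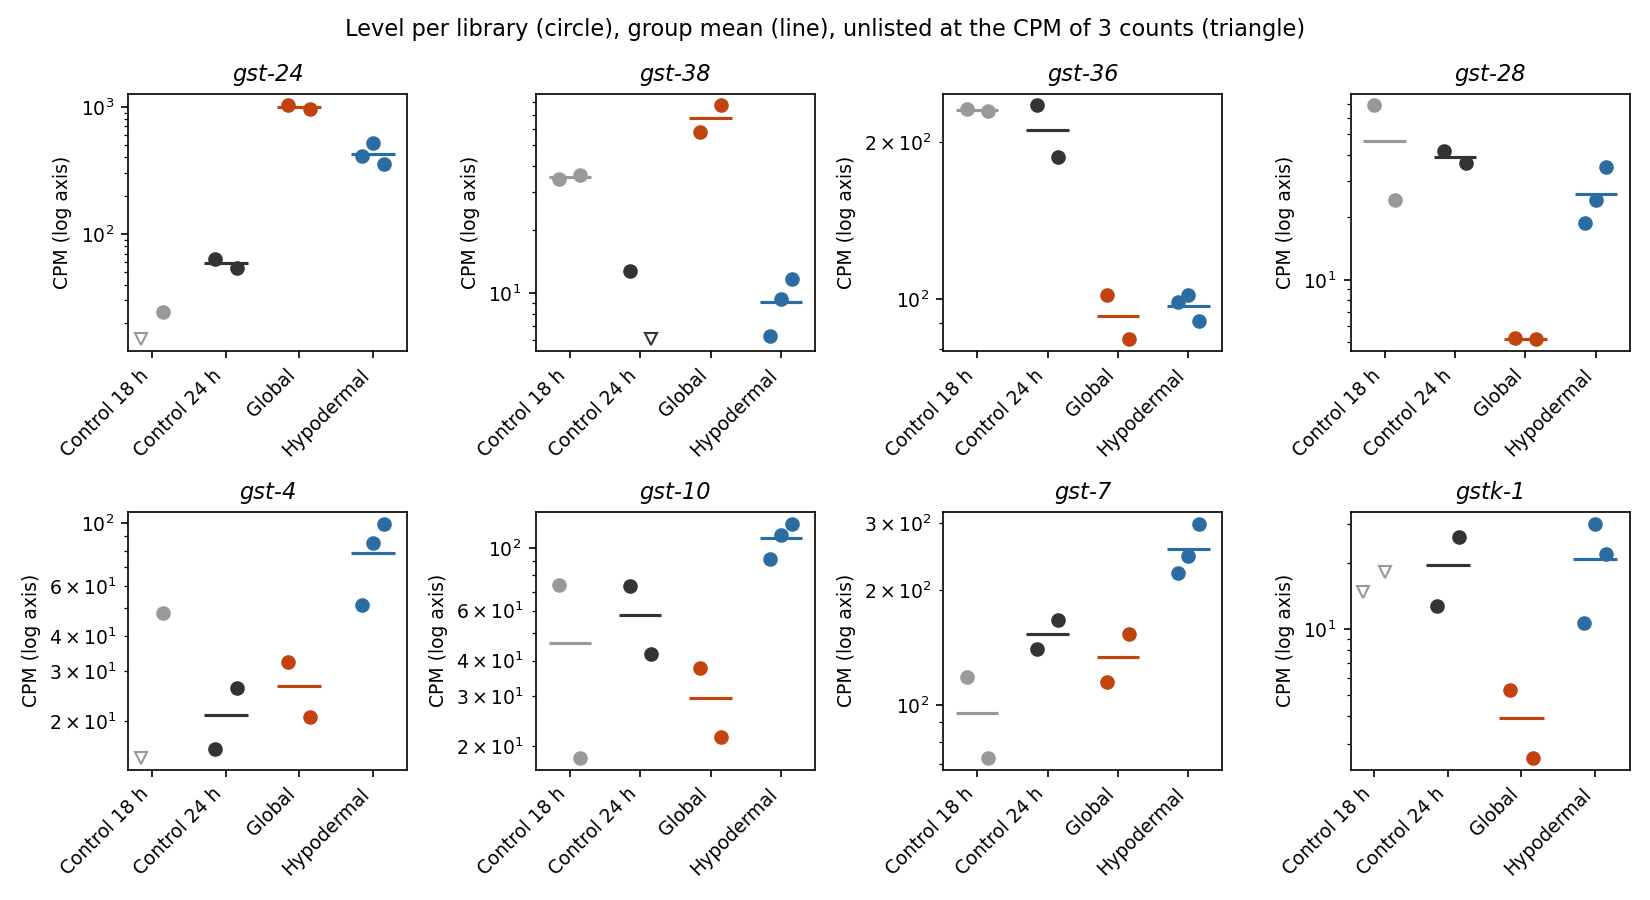
CPM per library on a log axis for the members that passed in at least 1 comparison between 24 h groups. These were gst-24, gst-38, gst-36, gst-28, gst-4, gst-10, gst-7 and gstk-1. Circles stand for libraries, lines for group means and triangles for unlisted values at the CPM of 3 counts. gst-24 steps from 63.7 and 54.4 CPM in the 24 h controls to 353 to 521 in hypodermal and 967 to 1028 in global depletion, while gst-4 is highest in hypodermal depletion.

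Set against each other at the same time point and with the same IAA, the depletions differed in 7 of the 31 members, or 22.6%, beside 4.38% of all genes. gst-10, gst-28, gst-4, gst-7 and gstk-1 were higher in hypodermal depletion, and gst-24 and gst-38 were lower. Over all genes 2.96% were higher and 1.42% lower, and the median log2 difference was 0.18 for the members and 0.01 for all genes. The number of members was 3 without hypodermal depletion 3, 4 without global depletion 1, 5 without hypodermal depletion 2 or global depletion 2, and 7 or 8 without any of the other libraries.

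gst-10, whose product conjugates the lipid peroxidation product 4-hydroxynonenal, had 37.7 and 21.5 CPM under global depletion and 91.5, 111 and 122 CPM under hypodermal depletion. The 24 h controls, at 73.2 and 42.3 CPM, lay between the depleted groups without overlapping them, and the 18 h controls were at 74.0 and 18.1 CPM. Hypodermal minus global was 1.84 (SE 0.33, edgeR adjusted p = 0.000142) and held under every alternative run. Against the 24 h controls neither estimate passed: 0.94 (SE 0.36, adjusted p = 0.127) in hypodermal and -0.90 (SE 0.42, adjusted p = 0.2) in global depletion.

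gst-7, in a row of 4 gst genes on chromosome II, was at 222, 247 and 299 CPM in hypodermal depletion, 115 and 153 in global depletion, 140 and 167 in the 24 h controls and 118 and 72.5 in the 18 h controls. All hypodermal libraries were above all other libraries. Hypodermal minus global was 0.93 (SE 0.23, edgeR adjusted p = 0.00801), and it was lost without hypodermal depletion 3 (adjusted p = 0.054) or global depletion 1 (0.355). Against the 24 h controls the hypodermal estimate was 0.72 (SE 0.25, adjusted p = 0.0877), and against the 18 h controls 1.39 (SE 0.31, adjusted p = 0.00118), the latter held under every alternative run.

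The kappa-class genes encode transferases that in mammals reside in mitochondria and peroxisomes. gstk-1 was unlisted in both 18 h controls, and its CPM at 24 h were 12.7 and 26.2 in controls, 5.28 and 2.58 under global depletion and 10.6, 30.2 and 22 under hypodermal depletion. Global depletion was below every other 24 h library. The log2 fold change was -2.31 in global depletion (SE 0.74, edgeR adjusted p = 0.0413), and hypodermal minus global was 2.33 (SE 0.63, adjusted p = 0.0183). The first call was lost without 24 h control 2 (adjusted p = 0.405), hypodermal depletion 2 (0.0782) or 3 (0.0593), or global depletion 1 (0.0914) or 2 (0.295), and its estimate ran from -2.91 without global depletion 1 to -1.68 without 24 h control 2. The second was lost without hypodermal depletion 2 (0.239) or 3 (0.0637), or global depletion 1 (0.102) or 2 (0.35). Both rest on few counts in global depletion and were lost in DESeq2 (0.0918 and 0.0653) and with unlisted counts as 0 (0.188 and 0.159), the first also without a filter (0.0959) and under total-count scaling (0.0538). gstk-2 passed against neither 24 h control comparison, at 15.9 and 30.2 CPM in the 24 h controls, 12.1 and 19.8 in global and 13, 21.4 and 20.7 in hypodermal depletion.

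Among the classes named for other chemistry, gsto-1, an omega-class enzyme with thiol transferase activity, was unlisted in both 18 h controls. It was at 34.9 ± 18.1 CPM (SD, n = 2) in the 24 h controls, 17 ± 5.8 in global and 16.6 ± 4.0 in hypodermal depletion (n = 3), with log2 fold changes of -0.97 (SE 0.57) and -1.04 (SE 0.53) and edgeR adjusted p = 0.346 and 0.297. gst-42, related to maleylacetoacetate isomerase of tyrosine breakdown, was at 28.4 ± 0.331 CPM in the 24 h controls, 23.7 ± 0.624 in global and 28 ± 4.7 in hypodermal depletion. Neither passed in any comparison.

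The other abundant members did not pass against the 24 h controls. gst-5 had means of 179 ± 57.1 CPM in the 24 h controls, 297 ± 27.8 in global depletion and 299 ± 54.7 in hypodermal depletion. Its log2 fold changes were 0.76 in each (SE 0.26 and 0.25), with edgeR adjusted p = 0.0633 and 0.0607, just outside the threshold. gst-1, the pi-class-like enzyme, was at 186 ± 47.1, 233 ± 7.76 and 264 ± 77.2 CPM in the 24 h controls, global and hypodermal depletion. Both global libraries lay above the 24 h controls and the hypodermal ones overlapped them, with log2 fold changes of 0.34 (SE 0.27, adjusted p = 0.508) and 0.51 (SE 0.25, adjusted p = 0.27). The 18 h controls of gst-1, at 197 and 242 CPM, lay on either side of the global libraries, at 227 and 238 CPM. gst-26 was at 168 ± 18.7, 110 ± 7.47 and 157 ± 36 CPM, and gst-27 at 116 ± 6.62, 91.7 ± 26.2 and 110 ± 26.9 CPM in the same order. For gst-26 both global libraries lay below the 24 h controls, with a log2 fold change of -0.60 (SE 0.29, adjusted p = 0.225). Its 18 h controls, at 66.5 and 158 CPM, lay on either side of the global libraries, at 105 and 115 CPM.

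On the genome, 24 of the 47 members lay on chromosome II, and 22 lay in 4 rows whose genes were at most 10000 bases apart. The row of gst-24 spans 13608154 to 13627141 on chromosome II in WBcel235 and holds gst-20, gst-24, gst-15, gst-14, gst-12, gst-16 and gst-19. The row at 15163808 to 15185385 holds gst-26, gst-27, gst-28, gst-29, gst-39, gst-31, gst-34 and gst-35. The other rows are gst-6 to gst-9 on chromosome II and gst-3, gst-2 and gst-4 on chromosome IV. The neighbours of gst-24 had other estimates than gst-24 itself. gst-20, the nearest gene on one side of gst-24, had log2 fold changes of -0.06 in both depletions (SE 0.31 and 0.29), and gst-15 on the other side had 1.68 (SE 0.70, edgeR adjusted p = 0.143) in global and 0.15 (SE 0.73) in hypodermal depletion. gst-14 had 1.41 (SE 0.47, adjusted p = 0.0505) and 1.30 (SE 0.45, adjusted p = 0.084). gst-12 had -0.26 (SE 0.53) and -0.29 (SE 0.49), gst-16 had 1.75 (SE 1.16) and 1.06 (SE 1.16), and gst-19, listed in 1 library only, was not tested. Of the 6 tested genes in the row, gst-24 alone passed against the 24 h controls. No coding exon of a member overlaps that of another gene. How the authors treated reads shared by similar genes is not given in the sources used here, so values of near-identical copies are uncertain one by one.

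**Figure D5:**
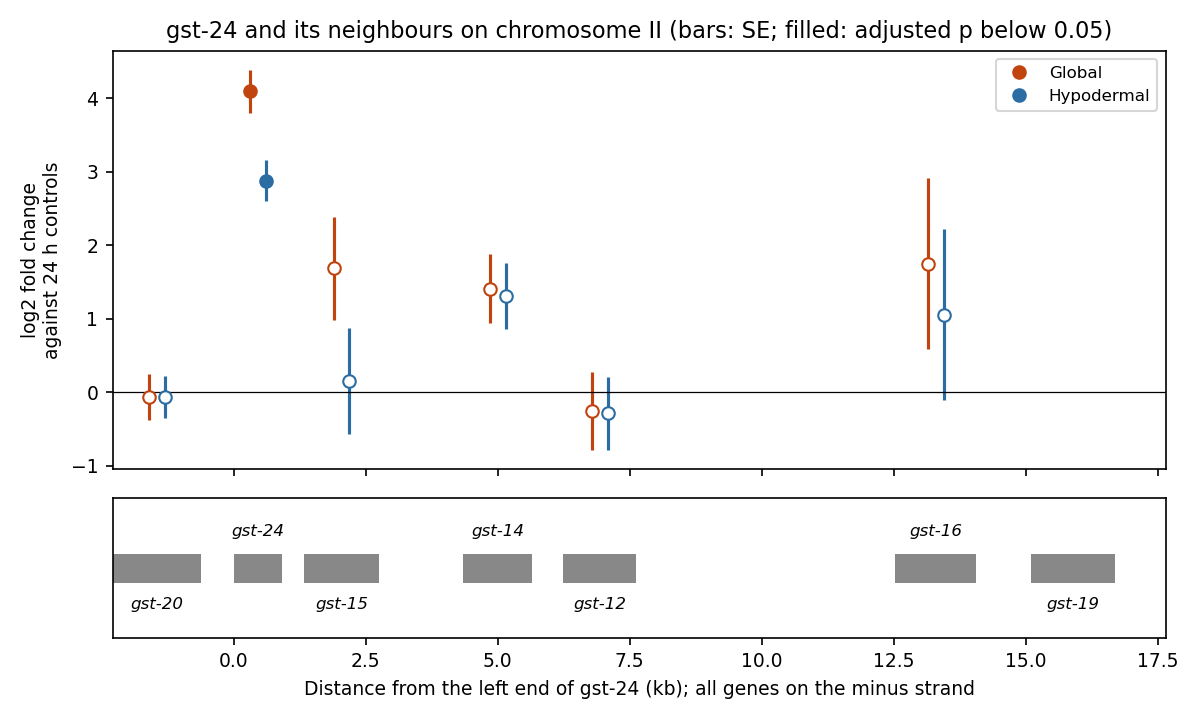
Upper panel: log2 fold change against the 24 h controls (y axis, SE bars) in global and hypodermal depletion for the tested genes of the gst-24 row; lower panel: the genes drawn to scale by distance from the left end of gst-24 in kilobases. The estimates were 4.09 and 2.87 at gst-24, -0.06 and -0.06 at gst-20 and -0.26 and -0.29 at gst-12. Those of gst-15, gst-14 and gst-16 were positive in both depletions, smaller than those of gst-24, and did not pass.

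Between 18 h and 24 h in the controls, 3 of 31 members passed, or 9.68%, beside 3.04% of all genes: gst-24 was higher at 24 h, and gst-14 and gst-21 were lower. Over all genes 0.933% were higher and 2.1% lower, with median log2 differences of -0.14 for members and 0.01 for all genes. In genes, that was 75 higher and 169 lower, and the split turned to 210 and 100 with unlisted counts as 0 and to 361 and 74 without a filter. gst-14 was at 123 and 103 CPM at 18 h and 25.5 and 14.1 at 24 h, a log2 difference of -2.59 (SE 0.50, edgeR adjusted p = 0.00111), lost without 24 h control 2 (0.0873). gst-21 was at 69.0 and 163 CPM at 18 h and 15.9 and 22.1 at 24 h, a log2 difference of -2.53 (SE 0.52, adjusted p = 0.0022), lost without 18 h control 2 (0.182). Both genes had every 18 h library above every other library, with the depleted groups between the controls: gst-14 at 43.0 and 57.7 CPM in global and 43.8, 49.6 and 46.6 in hypodermal depletion, gst-21 at 43.0 and 36.2 and at 45.3, 38.9 and 49.2 CPM. The gst-24 difference of 2.09 (SE 0.59, adjusted p = 0.0406) was lost without 18 h control 1 (0.422), 24 h control 1 (0.0903) or 24 h control 2 (0.082), in DESeq2 (0.0883), in a fit of the controls alone (0.208) and in thinned libraries (0.0887). The number of members called was 1 without 24 h control 2 and 2 without any of the other controls.

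Against the 18 h controls, global depletion had 7 members past the threshold, or 22.6%, beside 14.7% of all genes, of which gst-24 was higher and gst-14, gst-20, gst-21, gst-28, gst-36 and gstk-2 were lower. Over all genes 5.99% were higher and 8.69% lower. Hypodermal depletion had 10, or 32.3%, beside 13.1%: gst-24, gst-35, gst-4 and gst-7 higher, and gst-14, gst-20, gst-21, gst-36, gst-38 and gstk-2 lower. Over all genes 5.45% were higher and 7.63% lower. The median log2 difference was -0.07 for members and -0.02 for all genes in global depletion, and 0.43 and 0.03 in hypodermal depletion. The split depends on the value given to unlisted counts, and the 18 h controls are the shallowest libraries. With 0 in place of 1 the median of all genes moved to 0.31 in global and 0.36 in hypodermal depletion. The cause of the change in split was not tested. With 0 in place of 1, 5 members were higher and 3 lower in global depletion, and 9 were higher and 1 lower in hypodermal depletion. DESeq2 called 2 higher and 6 lower in hypodermal depletion. Without either 18 h control the counts were 3 in global and 5 in hypodermal depletion, and without global depletion 1 or 2 the global count was 4 or 3. These comparisons also differ in time, which cannot be told apart from depletion.

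For gst-24 the 18 h comparisons gave log2 differences of 6.18 (SE 0.42, edgeR adjusted p = 1.96e-15) in global and 4.96 (SE 0.43, adjusted p = 3.74e-12) in hypodermal depletion. gst-20 was at 182 and 163 CPM in the 18 h controls and 75.6 to 101 CPM in all depleted libraries, with differences of -1.06 in both (SE 0.32 and 0.30, adjusted p = 0.0181 and 0.0121). It was at 92.3 and 82.5 CPM in the 24 h controls, so its 18 h libraries stood above all others. gstk-2 showed the same order, at 49.3 and 66.5 CPM in the 18 h controls, with differences of -1.85 (SE 0.59, adjusted p = 0.027) and -1.66 (SE 0.54, adjusted p = 0.0337). gst-35 was unlisted in 18 h control 1 and at 18.1 CPM in 18 h control 2, at 38.2 and 12.1 CPM in the 24 h controls, 36.9 and 41.3 in global and 40.4, 60.3 and 57.0 in hypodermal depletion. Without 18 h control 1 or 2 the gst-24 differences were 5.41 or 7.69 in global and 4.20 or 6.47 in hypodermal depletion. For gst-35 the hypodermal difference from 18 h was 2.24 (SE 0.70, adjusted p = 0.0248).

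Several of these 18 h calls depended on single libraries. Without 18 h control 1 the adjusted p rose to 0.194 and 0.186 for gst-20, 0.296 and 0.22 for gst-14, and 0.0829 and 0.118 for gstk-2, in global and hypodermal depletion in that order, to 0.245 for gst-28 in global depletion, and to 0.297 for gst-35, 0.169 for gst-38 and 0.58 for gst-4 in hypodermal depletion. Without 18 h control 2 it rose to 0.0738 and 0.0659 for gst-20, 0.0965 and 0.0588 for gst-14, 0.206 and 0.255 for gstk-2, and 0.487 and 0.585 for gst-21, and to 0.14 for gst-38. Without global depletion 1 or 2 the global calls of gst-14 (0.243 and 0.0948), gst-20 (0.108 and 0.118) and gstk-2 (0.191 and 0.0632) were lost, and that of gst-21 without the second (0.102). Without hypodermal depletion 1, 2 or 3 the lost calls were gst-38 (0.0721) and gstk-2 (0.102) without the first, gst-35 (0.0709), gst-4 (0.116), gstk-2 (0.0521) and, in global depletion, gst-14 (0.0518) without the second, and gst-35 (0.0505) and gst-4 (0.133) without the third. With unlisted counts as 0 the calls of gst-14 (0.103 and 0.0530), gst-20 (0.0716 and 0.0528) and gstk-2 (0.103 and 0.114) were lost, and in hypodermal depletion those of gst-21 (0.0562) and gst-38 (0.0897). Without a filter the calls of gst-14, gst-20, gst-21, gst-36, gstk-2 and gst-38 were lost, at adjusted p from 0.0716 to 0.337. In DESeq2 those of gst-35 (0.0713) and gst-4 (0.101) were lost. Without 18 h control 2, estimates moved from -1.51 to -0.73 (global) and from -1.36 to -0.58 (hypodermal) for gst-21, from 1.64 to 4.0 for gst-4 and from 2.24 to 3.43 for gst-35, and without 18 h control 1 from -3.17 to -2.13 for gst-28.

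The 18 tested members not called in any comparison include gcs-1, gsr-1, gst-1, gst-5, gst-26, gst-27, gst-42 and gsto-1. The 16 members that were not tested never had more than 17 counts in a library, and 8 of them were listed in no control library. No comparison was made for them.

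The remaining genes of the glutathione pathway were read from lists drawn up with earlier results of these data known. Of 6 tested genes for cysteine supply and glutathione synthesis, among them the synthetase and cystathionine enzymes, 0 passed in edgeR's or DESeq2's test in either depletion against the 24 h controls, and 1 and 3 had an unadjusted edgeR p below 0.05 in global and hypodermal depletion. Of 3 tested glutathione peroxidases 0 passed by either tool, with 0 and 1 at an unadjusted p below 0.05. Their median log2 fold changes were -0.33 and -0.23 for the first list and -0.73 and 0.18 for the second, in global and hypodermal depletion. Of 8 tested glutaredoxin and thioredoxin genes, trx-3, an intestinal thioredoxin, fell in global depletion, where both libraries were unlisted and the level was at least 5.61-fold lower; it was lost without 24 h control 1 (adjusted p = 0.209) or global depletion 1 (0.137) or 2 (0.131), and with unlisted counts as 0 (0.100). In hypodermal depletion 0 of these 8 passed by either tool, with 1 at an unadjusted p below 0.05. The 1 tested gene of the glyoxalase list passed in neither depletion. Over all genes 5.02% fell in global and 3.41% in hypodermal depletion.

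Exporters of conjugates included genes that changed in both depletions. The mrp genes encode ABC transporters of the class that pumps glutathione conjugates out of cells, and all 8 were tested. In global depletion 2 rose and 1 fell, beside 3.43% and 5.02% of all genes, and in hypodermal depletion 3 rose, beside 1.66%. The median log2 fold changes were 0.62 and 0.36, beside 0.01 and 0.03 over all genes. mrp-2 was at 162 and 203 CPM in the 24 h controls, 561 and 553 in global and 736, 825 and 650 in hypodermal depletion. All depleted libraries were above all controls, with log2 fold changes of 1.59 (SE 0.24, edgeR adjusted p = 3.46e-06) and 2.00 (SE 0.23, adjusted p = 9.46e-09). mrp-6 had 1.42 (SE 0.41, adjusted p = 0.0191) and 1.47 (SE 0.39, adjusted p = 0.0146), lost without 24 h control 1 (0.275 and 0.312) and, in global depletion, without either global library (0.0718 and 0.0803), and in thinned libraries (0.148 and 0.0714). Its estimates were 2.44 in both without 24 h control 2. mrp-3 rose by 1.58 (SE 0.34, adjusted p = 0.00204) in hypodermal depletion, lost without 24 h control 2 (0.127).

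mrp-4 fell in global depletion and differed between the depletions. It was at 166 and 155 CPM in the 24 h controls, 68.6 and 46.5 in global depletion and 179, 202 and 264 in hypodermal depletion. Global depletion lay below all controls and hypodermal depletion above them. The log2 fold change was -1.47 in global depletion (SE 0.29, edgeR adjusted p = 0.000456) and 0.42 in hypodermal depletion (SE 0.26, adjusted p = 0.422), which did not pass, and hypodermal minus global was 1.88 (SE 0.26, adjusted p = 7.67e-07).

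Of 13 tested regulators of the SKN-1 pathway, skn-1 itself rose in both depletions and the kinase gene sgk-1 fell in global depletion. Over all genes 3.43% rose and 5.02% fell in global depletion, and 1.66% rose in hypodermal depletion. skn-1 was at 121 and 177 CPM in the 24 h controls, 286 and 300.4 in global and 299.5, 264 and 290.0 in hypodermal depletion. The depleted libraries lay above all 4 controls, as the 18 h controls were at 212 and 242 CPM. The log2 fold changes against the 24 h controls were 0.95 (SE 0.25, edgeR adjusted p = 0.00954) and 0.91 (SE 0.24, adjusted p = 0.0131), lost without 24 h control 1 (0.205 and 0.323) and, in global depletion, without either global library (0.0578 and 0.0903). It passed in neither depletion against the 18 h controls. wdr-23 was at 108 and 169 CPM in the 24 h controls, 165 and 146 in global and 169, 153 and 164 in hypodermal depletion, with estimates of 0.14 and 0.20 that did not pass. sgk-1 fell by 1.62 on the log2 scale in global depletion (SE 0.41, adjusted p = 0.00582), lost without 24 h control 1 (0.155) or global depletion 1 (0.144). In thinned libraries its estimate was -3.81.

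Of genes for proteins that carry the transferase fold but fall outside the naming rule, 10 were tested. In each depletion 1 was called, beside 8.45% of all genes in global and 5.07% in hypodermal depletion. This was cdr-4, of a family named for its response to cadmium. It rose by 1.34 (SE 0.42, edgeR adjusted p = 0.0334) in global and 1.64 (SE 0.39, adjusted p = 0.00624) in hypodermal depletion. It was lost in both without 24 h control 2 (0.541 and 0.376), and in global depletion without hypodermal depletion 3 (0.0514) or global depletion 1 (0.113) or 2 (0.115). In global depletion it was also lost in DESeq2 (0.0689), with unlisted counts as 0 (0.0666) and in a fit of those groups alone (0.0741), and in thinned libraries both calls were lost (0.385 and 0.408). Among 7 tested reductases, dehydrogenases and glucuronosyltransferases, 1 rose in each depletion, ugt-16, beside 3.43% and 1.66% of all genes. It was at 168 and 217 CPM in the 18 h controls and 108 and 52.3 in the 24 h controls. Global depletion had 155 and 170 CPM, and hypodermal depletion 125, 166 and 162. Among the controls ugt-16 was lower at 24 h, and against the 18 h controls it passed in neither depletion. Against the 24 h controls it rose by 1.08 (SE 0.31, edgeR adjusted p = 0.0191) in global and 0.97 (SE 0.29, adjusted p = 0.0419) in hypodermal depletion. It was lost without 24 h control 2 (0.45 and 0.656) or either global library (0.0645 and 0.128 in global, 0.0611 and 0.0502 in hypodermal depletion), and in hypodermal depletion without hypodermal depletion 2 (0.178) or 3 (0.0927). The hypodermal call was also lost in DESeq2 (0.0779), with DESeq2 size factors (0.0577) and in a fit of those groups alone (0.0801), and in thinned libraries both calls were lost (0.202 and 0.170).

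The intestine is a site of action of SKN-1, and 3 of its 10 markers fell in global depletion. The summed level of the 10 was 12411 to 16522 CPM in the 24 h controls, 9641 to 10641 in global depletion and 11471 to 16415 in hypodermal depletion. Of the 10 markers, all listed in each of these groups, those that fell in global depletion against the 24 h controls were ifb-2, pept-1 and cpr-6, beside 5.02% of all genes that fell, and 1, ifb-2, fell in hypodermal depletion, beside 3.41%. The other 7 did not pass in global depletion. Their estimates were 0.90 for elt-2, -2.17 for elt-7, -1.06 for ges-1, -0.47 for act-5, -0.11 for ifc-2, -0.57 for erm-1 and -0.39 for asp-1. Unadjusted edgeR p was below 0.05 for 6 of the 10 in global and 3 in hypodermal depletion. The median log2 fold changes of the 10 were -0.66 and -0.097. Between the depletions 3 of the 10 were higher in hypodermal depletion, beside 2.96% of all genes, and 0 were lower, with a median of 0.52. These were ges-1 (1.67, edgeR adjusted p = 0.00219), pept-1 (1.42, 1.53e-05) and cpr-6 (2.53, 4.83e-09). The ges-1 difference was lost in 3 of 19 alternatives, and those of pept-1 and cpr-6 in 0. The ifb-2 calls were lost without 24 h control 1 (adjusted p = 0.155 and 0.174), without either global library in global depletion (0.0538 and 0.22) and without hypodermal depletion 2 in hypodermal depletion (0.126), and in both without a filter (0.117 and 0.123). In hypodermal depletion it was also lost with unlisted counts as 0 (0.0717) and in thinned libraries (0.0807). Members that fell in global depletion were gst-28, gst-36 and gstk-1, and members that rose were gst-24 and gst-38. The part of the intestinal markers in these differences was not tested. Hypodermal markers, the tissue in which col-10-driven TIR1 acts, summed to 3082 to 4213 CPM in the 24 h controls, 2829 to 3347 in global and 2572 to 4550 in hypodermal depletion, and 0 of 9 tested passed against the 24 h controls by edgeR or DESeq2 in either depletion, with 0 and 1 at an unadjusted p below 0.05. Against the same controls 1 of 10 body wall muscle markers fell in global depletion, beside 5.02% of all genes. There 4 of the 10 were at an unadjusted edgeR p below 0.05, and their median log2 fold change was -0.30. In hypodermal depletion 0 of them passed in edgeR and 1 in DESeq2, with 2 at an unadjusted p below 0.05. None of the 10 neuronal, 7 pharyngeal or 4 germ line markers tested passed in either depletion by edgeR or DESeq2, with 0 and 1, 1 and 2, and 0 and 0 of them at an unadjusted p below 0.05.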

How the data were processed

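Whole-worm RNA was sequenced after Trizol extraction, removal of ribosomal RNA with RNase H and a SMARTER library kit, per the labels' protocols. The deposited table gives raw counts for the coding sequence of each gene, as whole numbers of at least 3; the submitters' processing notes name the build WBcel235 and DESeq2. The sources used here do not give the aligner, the counter or the use of strand. Of the libraries in the table, 1 matched no sample and was not used.

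Unlisted counts entered as 1. Genes were filtered with filterByExpr (minimum count 10, minimum total 15), leaving 8035, scaled with TMM on the deposited totals and fitted over all 9 libraries with a term per group in edgeR 4.0.16 (R 4.3.3, robust quasi-likelihood test). The biological coefficient of variation was 0.203, and p was adjusted by Benjamini-Hochberg over all genes tested, with 0.05 as the threshold. All 6 pairs of groups were compared. CPM values carry the TMM factors; levels at 3 counts cover counting error only. Alternatives, 19 in all, changed unlisted counts, scaling, filter, tool (DESeq2 1.42.0), fit, depth or left out a library.

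Members and gene lists were chosen with earlier results of these data known. Every member past the threshold or with a group mean of at least 100 CPM is named, other members by counts and, for classes and neighbours, as examples. From the lists, up to 3 passing genes with the smallest adjusted p, plus skn-1 and wdr-23, are named. No sequences are printed.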

Additional observations from a re-analysis of the deposited data

Results flagged for a closer look

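For 7 members the difference between hypodermal and global depletion, tested directly in the edgeR fit over all genes, passed at an adjusted p below 0.05. Hypodermal minus global, the log2 difference was 1.84 for gst-10, 1.53 for gst-4, 2.24 for gst-28, 2.33 for gstk-1 and 0.93 for gst-7. It was -1.22 for gst-24 and -2.95 for gst-38. The 24 h controls stood at different places in these orders: below both depletions for gst-24, between them for gst-10 and above both for gst-28. The differences of gst-10, gst-24 and gst-38 passed under every alternative that tested them, and those of gst-28, gst-4, gst-7 and gstk-1 were lost under at least 1. In thinned libraries gst-38, gst-28 and gstk-1 were not tested, so their differences were not checked at equal depth. Groups of 2 and 3 libraries are too small for a test of single outlying libraries.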

How the results depend on the processing

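Over the 35 calls of members in the 6 comparisons, 535 recomputed values kept direction and side of the threshold, 113 kept the direction and lost the call, and 0 reversed. 10 calls held under every alternative that tested them. Among these, the calls of gst-28 and gst-38 were not tested in thinned libraries. Apart from leaving out libraries and the replicate block, losses were most frequent without a filter (12 of 35), with unlisted counts as 0 (11 of 35) and in thinned libraries (8 of 21), and 5 of 35 were lost in DESeq2. The cause of each loss was not tested, except that thinning to 166455 counts per library leaves fewer counts.

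The numbers of members called, over libraries left out 1 at a time, were 3 to 6 (global against 24 h controls), 2 to 4 (hypodermal against 24 h), 3 to 8 (between depletions), 1 to 3 (24 h against 18 h), 3 to 8 (global against 18 h) and 5 to 11 (hypodermal against 18 h). Thinned, they were 1 in place of 5, 3 in place of 7, 1 in place of 3, 3 in place of 7 and 5 in place of 10 for the comparisons other than hypodermal against 24 h, where they were 2 in place of 3, with gst-36 and gst-4 lost.

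Over all genes, 679 calls in global against 24 h controls became 321 thinned and 347 to 758 with a library left out. The 407 in hypodermal against 24 h controls became 250 with unlisted counts as 0, 148 thinned and 255 to 459. The 352 between depletions became 137 thinned and 161 to 419. The 244 between controls became 435 without a filter, 92 in a fit of those groups alone, 142 thinned and 78 to 235. The 1179 in global against 18 h became 728 thinned and 678 to 1310, and the 1051 in hypodermal against 18 h became 1626 without a filter, 624 thinned and 515 to 1160. Total-count scaling gave 360 higher and 340 lower in global against 24 h (276 and 403 with TMM) and 204 and 156 between depletions (238 and 114), and moved the median of all genes from 0.01 to 0.11 in the first. DESeq2 size factors gave 317 and 736 in hypodermal against 18 h (438 and 613).

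Libraries with the same replicate number deviated together only weakly (correlations of -0.0584 to 0.112), so the number was not taken as pairing. With it as a replicate block, members called were 4, 2, 3, 2, 6 and 8 in the order above, and all genes 605, 269, 211, 172, 1055 and 829. Of the 35 member calls 10 were lost. Those were gstk-1 in global and gst-4 in hypodermal depletion against the 24 h controls, and gst-28, gst-4, gst-7 and gstk-1 between depletions. The others were gst-24 between controls, gst-14 in global depletion against 18 h, and gst-35 and gst-4 in hypodermal depletion against 18 h. The alternatives for list genes and intestinal markers were chosen after seeing the data. Depth limits the 18 h comparisons most, where 3 counts stand for 14.8 and 18.1 CPM.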
